A study of Mus musculus with 54 samples.

Results

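The replication-dependent histone genes are the small clustered genes that supply histones H1, H2A, H2B, H3 and H4 to newly made DNA. They were taken as the protein-coding genes of the GENCODE M21 annotation with names that begin with Hist1h, Hist2h, Hist3h or Hist4h, and 67 of 21938 protein-coding genes met this rule. Of these, 6 encode H1, 18 encode H2A, 18 encode H2B, 12 encode H3 and 13 encode H4. The Hist1 cluster on chromosome 13 held 54 of them, Hist2 on chromosome 3 held 10, Hist3 on chromosome 11 held 2, and Hist4 on chromosome 6 held Hist4h4 alone.

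The data were positions of open chromatin from ATAC-seq, in which the transposase Tn5 inserts adapters into accessible DNA. The cells were ZHBTc4 mouse embryonic stem cells, a line whose endogenous Pou5f1 (the gene of OCT4) is silenced by doxycycline (dox), rescued with a degradable fusion, mCherry-OCT4-AID, and carrying the cell cycle reporter YPet-MD. They also expressed Tir1, the ubiquitin ligase through which auxin degrades the fusion. All 54 samples, in 24 groups, received dox at 1 ug/ml, so tagged OCT4 was the form left in every group, and auxin (IAA, 500 nM) was used to degrade it. In 22 samples, cells with 26 hr of dox, with or without 2 hr of IAA, were sorted into early G1, late G1, S and late S with G2. In 16 samples the sort followed 31 hr of dox, 2.5 hr with or without IAA and a washout of 4.5 hr. The last 16 samples were unsorted, with 34 hr of dox, and were untreated or had IAA for 30 min or 1, 2, 3, 4, 6 or 10 hr. The deposited list merges these samples into 113737 regions with a start and an end and nothing else. No value therefore belongs to a sample, a phase or a treatment, there are no replicates to give an error, the depth is unknown, and differences between cell cycle phases or IAA times were not analysed here. Intervals, where given, are Wilson 95% intervals of a share and cover counting error only, and neighbouring histone genes often share a peak and so are not independent.

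Cells make most of their new histones in S phase, when NPAT, switched on by cyclin E with CDK2, drives transcription of these genes in nuclear bodies known as histone locus bodies. H2A pairs with H2B, H3 pairs with H4, and together they form the nucleosome core, while H1 binds the linker DNA. The messages of these genes have no poly(A) tail. They end after a short stem-loop that is bound by SLBP, and their 3′ ends are cut with the help of the U7 small ribonucleoprotein. Replacement histones such as H3.3 and H2A.Z come from separate genes that are used in all phases.

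The stem-loop was used to check the label. Of the 67 genes, 65 held it within 200 bases after the stop codon, starting 22 to 59 bases after it (median 31), against 5 of 21685 other protein-coding genes (0.0231%). The other 5 were Btbd10, H2afx, H2bfm, Ppm1b and Tcl1b1, and the histone genes with no match were Hist2h2be and Hist1h2an. Among 14 replacement histone genes it was found in H2afx alone, a gene for an H2A form known to make both kinds of message. There were 8 distinct stem-loops, and those of H4 genes were not found in the other types. The 3 most frequent are shown with the paired stem in capitals and the loop of 4 bases in lower case.
The form of 41 genes, all of H1, H2A, H2B or H3: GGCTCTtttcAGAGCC
The form of 9 genes, also none of them H4: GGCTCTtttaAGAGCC
The form of 8 H4 genes: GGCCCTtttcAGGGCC
The stem thus began with GGCTCT in no H4 gene, and the remaining 5 H4 genes carried 3 other forms.

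The peaks discussed next lie over promoters, so 8 promoters are printed to show what the peaks cover. Each runs 5′ to 3′ along the gene from 250 bases before to 50 bases after the RefSeq start in GRCm38. Capitals mark, on either strand, TATAAA (the letters of a TATA box), CCAAT (bound by NF-Y), ATTTGCAT (the octamer bound by POU proteins such as OCT1 and OCT4), AAACACA (the H1 box) and GGTCCG (an element of H4 promoters). Hist1h1c, Hist1h2bg, Hist1h3b and Hist1h4d are examples for H1, H2B, H3 and H4, Hist1h2ba is a testis variant, Hist2h2aa1 and Hist2h2aa2 are copies of each other, and Hist1h2ao had no peak.
Hist1h1c: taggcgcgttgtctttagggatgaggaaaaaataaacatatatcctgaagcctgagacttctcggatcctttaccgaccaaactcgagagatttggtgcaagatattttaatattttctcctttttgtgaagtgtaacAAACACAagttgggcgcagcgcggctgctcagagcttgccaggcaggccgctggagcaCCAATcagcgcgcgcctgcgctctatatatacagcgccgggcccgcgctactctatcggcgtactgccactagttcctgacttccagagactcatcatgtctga
Hist2h2aa1: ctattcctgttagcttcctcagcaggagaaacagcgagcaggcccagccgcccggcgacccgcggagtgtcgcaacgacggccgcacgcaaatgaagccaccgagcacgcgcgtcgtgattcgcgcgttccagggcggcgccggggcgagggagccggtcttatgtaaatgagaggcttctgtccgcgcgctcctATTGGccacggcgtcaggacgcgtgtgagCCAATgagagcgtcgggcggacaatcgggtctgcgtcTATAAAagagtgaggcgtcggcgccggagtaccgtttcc
Hist2h2aa2: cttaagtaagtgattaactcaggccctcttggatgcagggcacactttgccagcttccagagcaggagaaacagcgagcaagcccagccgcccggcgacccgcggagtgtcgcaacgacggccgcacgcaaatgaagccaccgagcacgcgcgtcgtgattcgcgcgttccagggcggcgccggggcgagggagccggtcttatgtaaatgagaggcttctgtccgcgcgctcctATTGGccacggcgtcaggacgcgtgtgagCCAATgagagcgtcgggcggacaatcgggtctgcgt
Hist1h2ao: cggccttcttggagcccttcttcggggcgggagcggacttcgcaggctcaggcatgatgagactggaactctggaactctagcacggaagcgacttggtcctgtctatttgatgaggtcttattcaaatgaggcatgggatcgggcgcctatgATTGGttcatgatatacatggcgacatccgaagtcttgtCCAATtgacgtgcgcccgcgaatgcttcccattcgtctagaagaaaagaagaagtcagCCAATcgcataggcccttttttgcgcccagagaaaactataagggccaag
Hist1h2ba: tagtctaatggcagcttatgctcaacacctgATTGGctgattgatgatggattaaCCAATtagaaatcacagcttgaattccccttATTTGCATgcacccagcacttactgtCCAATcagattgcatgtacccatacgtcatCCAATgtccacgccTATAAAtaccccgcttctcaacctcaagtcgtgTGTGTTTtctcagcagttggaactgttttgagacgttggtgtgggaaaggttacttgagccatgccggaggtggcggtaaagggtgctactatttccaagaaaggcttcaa
Hist1h2bg: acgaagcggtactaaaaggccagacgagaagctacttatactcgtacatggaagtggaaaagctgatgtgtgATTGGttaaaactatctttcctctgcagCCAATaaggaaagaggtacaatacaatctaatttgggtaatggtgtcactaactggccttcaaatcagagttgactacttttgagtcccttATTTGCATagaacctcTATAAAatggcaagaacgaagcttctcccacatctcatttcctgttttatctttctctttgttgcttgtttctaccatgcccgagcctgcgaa
Hist1h3b: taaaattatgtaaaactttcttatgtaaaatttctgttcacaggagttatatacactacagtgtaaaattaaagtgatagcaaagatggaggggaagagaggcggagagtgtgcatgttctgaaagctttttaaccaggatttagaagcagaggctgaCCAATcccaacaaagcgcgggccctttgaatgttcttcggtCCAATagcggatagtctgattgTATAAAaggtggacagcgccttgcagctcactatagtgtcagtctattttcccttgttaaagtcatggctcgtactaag
Hist1h4d: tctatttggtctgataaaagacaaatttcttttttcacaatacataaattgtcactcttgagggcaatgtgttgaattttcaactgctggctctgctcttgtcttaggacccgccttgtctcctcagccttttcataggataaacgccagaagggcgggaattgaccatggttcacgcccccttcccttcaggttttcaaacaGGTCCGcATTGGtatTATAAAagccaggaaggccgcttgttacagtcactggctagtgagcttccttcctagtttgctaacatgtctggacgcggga
Hist1h1c lies at chr13:23738557-23738856 on the plus strand, and Hist1h3b at chr13:23752095-23752394 on the plus strand. The copies lie at chr3:96245247-96245546 on the plus strand for Hist2h2aa1 and at chr3:96240325-96240624 on the minus strand for Hist2h2aa2. Hist1h2ao lies at chr13:21810117-21810416 on the plus strand, and Hist1h2ba at chr13:23934107-23934406 on the minus strand. Hist1h2bg lies at chr13:23571150-23571449 on the plus strand, and Hist1h4d at chr13:23581318-23581617 on the plus strand.

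Promoter elements followed the histone type. RefSeq gave 63 promoters for 62 of the 67 genes (Hist1h2be has 2), and 21200 promoters of other protein-coding genes served for comparison. Hist1h2bc, Hist1h3a, Hist1h3f, Hist2h2be and Hist2h4 had no entry. CCAAT occurred in all promoters of H1, H2A, H2B and H3 genes but in 3 of 12 H4 promoters, or 54 of 63 in all (85.7%), against 38.1% of other promoters. TATAAA occurred in 35 of 63 (55.6%) against 12.5%, with every histone type represented. These are matches anywhere in the window and on either strand, and 15 of the 63 promoters held TATAAA on the strand of the gene between -50 and -20. The share of other promoters with TATAAA at that place was not counted. The H1 box was present in 5 of 6 H1 promoters, all but that of Hist1h1a, against 6.12% of other promoters. It also occurred in 2 of 18 H2A and 2 of 17 H2B promoters. GGTCCG was present in 11 of 12 H4 promoters, all but that of Hist1h4a, against 10.4% of other promoters. It also occurred in 1 of 17 H2B promoters (Hist1h2bh) and 1 of 10 H3 promoters (Hist1h3i). Such matches describe letters in a window of 300 bases and do not show that a factor was bound.

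The octamer was a feature of H2A and H2B promoters. It occurred in 14 of 63 histone promoters (22.2%) and in 1.60% of others, with 7 of 17 among H2B, 7 of 18 among H2A and 0 among H1, H3 and H4. With up to 1 mismatch it was found in 88.2% of H2B promoters, and in 16.5% of 2120 other promoters. In the 7 H2B promoters it lay on the strand of the gene, between -164 (Hist1h2ba) and -25 (Hist1h2bm), as in Hist1h2bg at -59. In the 7 H2A promoters it lay on the opposite strand, from -200 in Hist2h2ac to -119 in Hist3h2a. The 14 matches came from 11 places, since 3 lay between an H2A and an H2B gene and counted for both. Those of Hist1h2ac and Hist2h2ac also lie between the starts of a pair, but their partners Hist1h2bc and Hist2h2be had no RefSeq entry and are not in the H2B count. Of the 11 places, 10 were inside a peak, and the exception was that of Hist1h2ab, at chr13:23750959-23750966, just before a peak that starts at 23750987. Most of these windows were covered in any case, since 44 of 63 histone promoters (69.8%) and 54.6% of other promoters lay wholly in peaks. Among 224 matches to the 5 motifs there was 1 overlap between different motifs, and it did not involve the octamer.

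**Figure D1:**
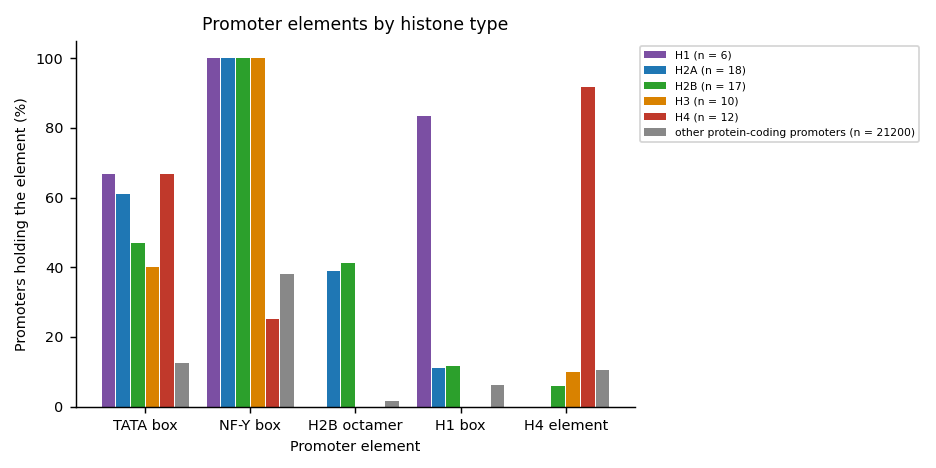
Share of promoters (%, vertical axis) that hold each of 5 elements anywhere in 300 bases on either strand, by histone type, with other protein-coding promoters in grey; NF-Y box stands for the CCAAT box. The H1 box stands out in H1 promoters, the octamer in H2A and H2B, and the H4 element in H4 promoters (91.7%), where the NF-Y box is found in 25%.

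Peaks lay at nearly all of these genes. A start-site peak was counted where the centre of a peak fell at most 1 kb from any transcription start site (TSS) annotated for the gene, and 62 of 67 histone genes had one (92.5%, interval 83.7 to 96.8%). The share was 70.7% among the 21871 other protein-coding genes and 41.6% among 2866 genes of similar length, whose span lay between the 5th and the 95th percentile of the histone genes (381.9 to 3727.4 bp). Without 314 chemosensory receptor genes, of which 12 had a peak, the share of similar-length genes was 46.2%. The annotated 5′ start itself lay in a peak for 57 histone genes (85.1%), against 35.4% of similar-length and 60.1% of other genes.

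Length mattered to this comparison, because the histone genes are shorter than most of the genes set beside them (median span 539 bp against 1979.5 bp for similar-length genes). Among genes of 300 to 600 bp, 34 of 36 histone genes and 33 of 187 others (17.6%) had a start-site peak. From 600 to 1200 bp the counts were 14 of 14 and 119 of 650 (18.3%), and from 1200 to 4000 bp they were 12 of 14 and 1180 of 2300 (51.3%). From 4000 to 40000 bp they were 2 of 3 and 8698 of 12582 (69.1%), so the few long histone genes did not stand above others of their length.

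**Figure D2:**
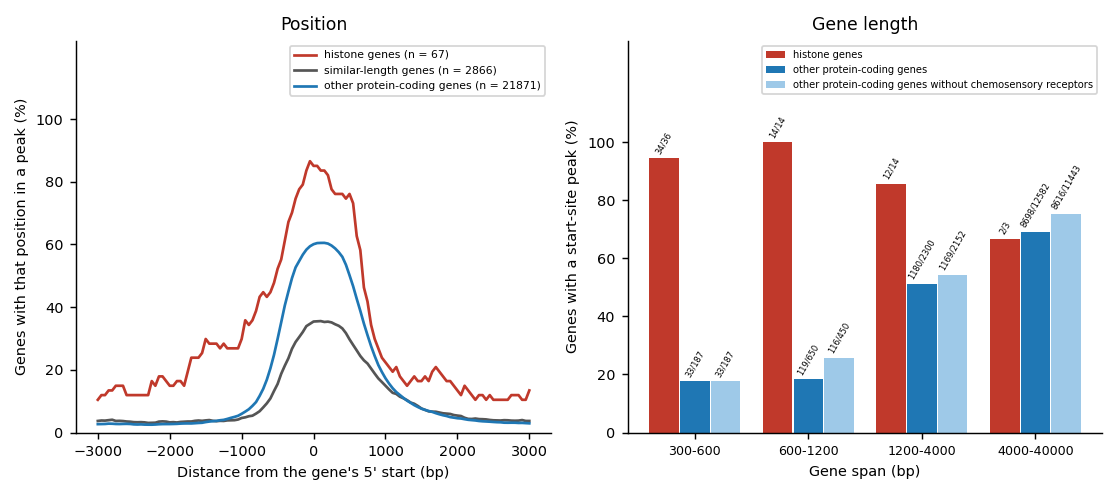
Left, share of genes (%) whose sequence at each distance from the 5′ start (bp, negative is upstream) lay in a peak; right, share of genes (%) with a start-site peak by gene span (bp), with counts above the bars. At 500 bp after the start 76.1% of histone genes, 29.7% of similar-length genes and 50.2% of other protein-coding genes were in a peak.

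The peaks often covered the gene as well as its promoter. The median share of the gene span inside peaks was 93.8% for histone genes, 3.92% for other protein-coding genes and 0% for similar-length genes. This share depended on span: its median was 100% for histone genes and 0% for others at 300 to 600 bp, 98.5% and 0% at 600 to 1200 bp, 42.0% and 11.8% at 1200 to 4000 bp, and 9.97% and 5.49% at 4000 to 40000 bp. The whole span was inside peaks for 32 of 67 histone genes (47.8%), against 0.302% of other and 1.81% of similar-length genes. For some histone genes, such as Hist1h2bl, the stem-loop lies outside the annotated span, so the span does not hold the whole transcribed gene. At 500 bp upstream of the start 52.2% of histone genes were in a peak (15.5% of similar-length genes), and at 1000 bp downstream 22.4% were (14.9%). Histone peak centres lay a median of 278 bp from the TSS, in either direction, against 93 bp for other and 161 bp for similar-length genes. The widths themselves differed less. The peak nearest the start had a median width of 1302.5 bp at histone genes (225 to 2541 bp), 1172 bp at other genes and 1148.5 bp at similar-length genes. Since a merged region keeps the outer edges of all overlapping calls, these widths need not be those of any single library. The widths given for single genes and histone types below are those of the nearest start-site peak, as 7 genes had more than 1, and the narrowest of all, 224 bp, was a second peak of Hist1h2ae and Hist1h2bg.

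Among the H1 genes, which encode the linker histones, 5 of 6 had a start-site peak, and in all 5 the centre lay downstream of the start. The median width was 1336 bp, with the widest peak at Hist1h1e (1974 bp) and the narrowest at Hist1h1t (529 bp). Hist1h1t encodes the testis H1, and its peak, centred 307 bp into the gene, did not contain the start. Hist1h1d, at chr13:23553262-23560686, was the H1 gene without a start-site peak, as the nearest centre lay 1722 bp from its GENCODE start. RefSeq starts the same gene at 23555032, and from there the nearest centre was 692 bp away.

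Of the H2A genes 16 of 18 had a start-site peak, with a median width of 1152 bp. The widest, 2210 bp, was shared by Hist2h2ab and Hist2h2ac, and the narrowest nearest peak belonged to Hist1h2af (556 bp). Hist1h2ab was the gene just inside the limit of 1 kb, with the centre of its 2078 bp peak 900 bp downstream, although the peak contained its start. Hist1h2ap was the gene just outside, with a distance of 1627 bp, and Hist1h2ao followed at 1692 bp.

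Of the H2B genes 16 of 18 had a start-site peak, and all 16 had their start inside it. Among all genes with a start-site peak this held for 91.9% of histone, 94.7% of other protein-coding and 87.4% of similar-length genes. Their median width, 1539.5 bp, was the highest of the 5 types, and their nearest peaks ran from 1016 bp at Hist1h2ba to 2541 bp at Hist1h2bb. The missing genes were Hist1h2br, with the nearest centre at 1863 bp, and Hist1h2bq at 1960 bp. Hist1h2bj had 3 start-site peaks, more than any other histone gene. Hist1h2be is annotated over 37455 bp, and its 5′ GENCODE start, 23621124, lies inside Hist1h1e and in the 1974 bp peak of that gene. This is the start-site peak counted for Hist1h2be. RefSeq gives Hist1h2be a second start at 23585970, which also had a peak, centred 276 bp downstream.

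The H3 and H4 genes had start-site peaks throughout, in 12 of 12 (interval 75.8 to 100%) and 13 of 13 (77.2 to 100%). H3 widths ran from 415 bp at Hist1h3h to 2541 bp at Hist1h3c, with a median of 1071.5 bp. H4 widths ran from 225 bp at Hist1h4m to 2143 bp at Hist1h4a, with a median of 1120 bp. The whole span was in peaks for 9 of 13 H4 genes, 6 of 12 H3, 8 of 18 H2B, 7 of 18 H2A and 2 of 6 H1 genes. The centre lay downstream of the start in 11 of 13 H4, 8 of 12 H3, 6 of 16 H2A and 3 of 16 H2B genes with a peak, against 57.7% of other and 64.7% of similar-length genes with one. Hist4h4, alone in its cluster, had a peak of 1411 bp centred 289 bp downstream. The counts in each type are small, and the intervals of the shares with a start-site peak overlap between types.

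**Figure D3:**
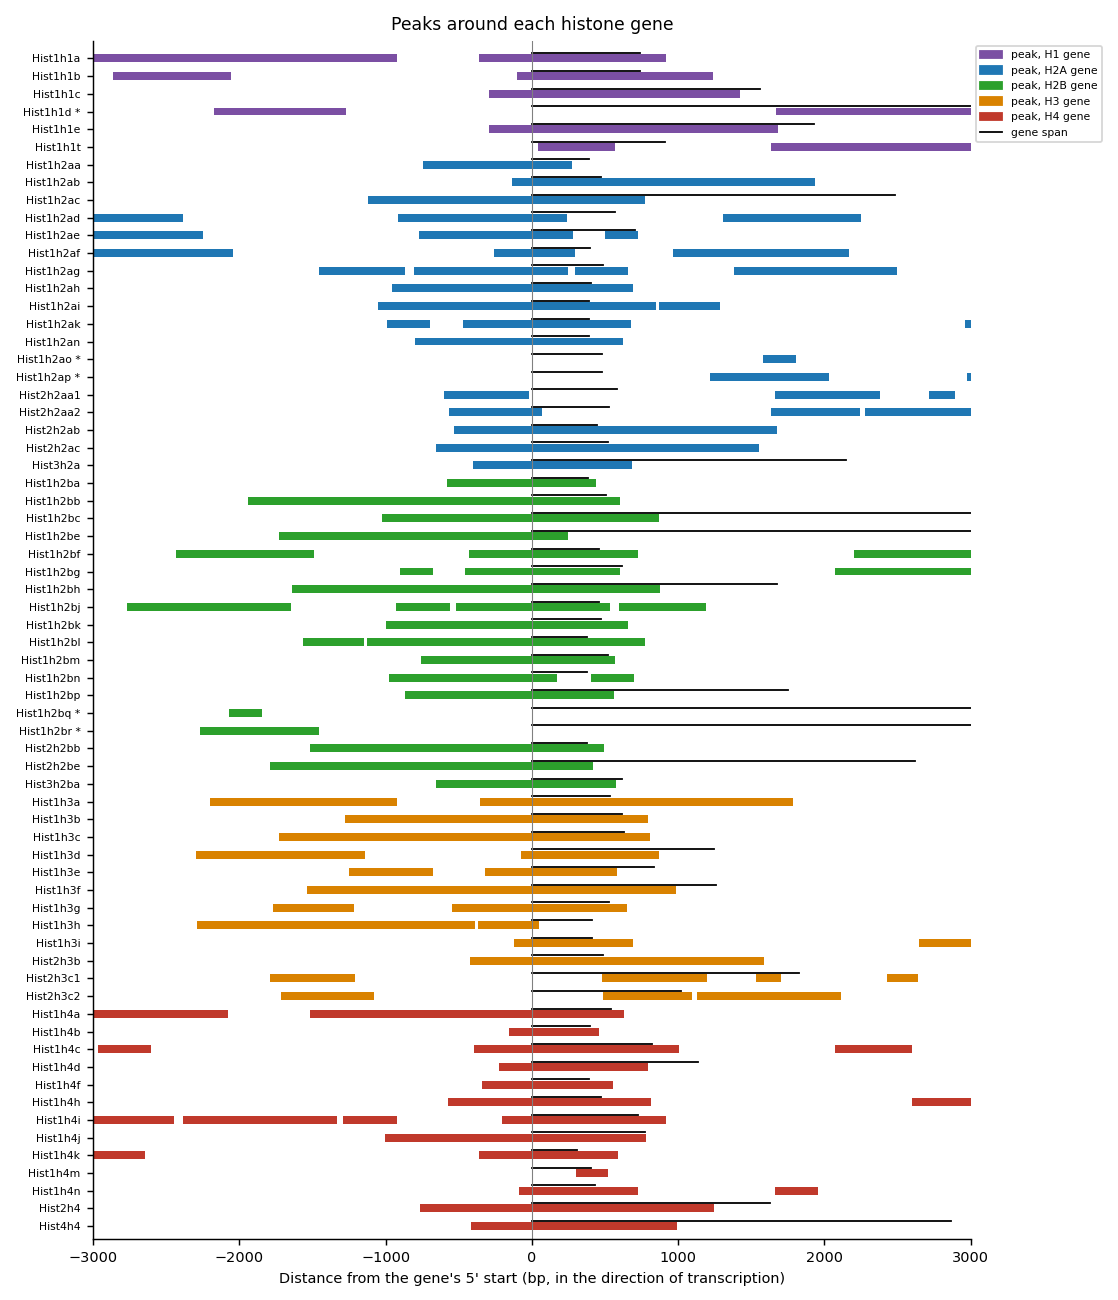
Peaks (coloured bars, by histone type) within 3000 bp of the 5′ start of each of the 67 histone genes, drawn in the direction of transcription, with the gene span as a black line above. Asterisks mark the 5 genes without a start-site peak, and the start lay inside a peak for 57 genes.

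Many H2A and H2B genes start back to back, so that upstream of one is the promoter of the other. Of the 13 pairs of histone genes that start back to back within 1 kb, 12 joined an H2A and an H2B gene and 1 joined Hist1h2bh and Hist1h3f. The starts of a pair lay 176 to 660 bp apart (median 268 bp). In 11 of 13 pairs a single peak held both starts, as at Hist1h2ae and Hist1h2bg, whose starts lie 176 bp apart, and at the testis pair Hist1h2ba and Hist1h2aa, with 1 peak of 1016 bp. The exceptions were Hist1h2bq with Hist1h2ao and Hist1h2ap with Hist1h2br. Other back-to-back pairs of protein-coding genes were not counted, so whether this share is particular to histone pairs was not tested.

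The 62 histone genes with start-site peaks were served by 50 distinct peaks. Of these, 19 (38.0%) served at least 2 histone genes, whereas 7.60% of the 19525 start-site peaks of all protein-coding genes, and 18.7% of the 1286 at similar-length genes, served at least 2 protein-coding genes. The first of these shares counts histone genes alone. Shared peaks had a median width of 1652 bp, and those of a single histone gene 943 bp. One peak, at chr3:96219330-96221539, served 3, namely Hist2h2ab, Hist2h2ac and Hist2h2be, together with Bola1. The widest, 2541 bp, served Hist1h3c and Hist1h2bb, and the next, 2521 bp, served Hist1h2bh and Hist1h3f. Counted by distinct peak, the median width was 1106.5 bp at histone genes, 1091.5 bp at similar-length genes and 1068 bp at all protein-coding genes. These distinct peaks include those that are not the nearest to any start.

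Start-site peaks of histone genes held less G and C, with a median of 52.2%, than those of similar-length genes (59.0%) or of all other protein-coding genes (58.3%). Their ratio of observed to expected CpG was higher, at a median of 0.774 against 0.657 and 0.635.

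Several histone genes have a near-identical copy nearby, and 4 of the 5 genes without a start-site peak were among them. Reads were 75 bases long, so each position within 1 kb of a start was scored as repeated if the word of 75 bases around it occurs more than once in the 21 chromosomes, on either strand. In 10 histone genes over 50% of positions were repeated. Of these 6 had a start-site peak, against 56 of the other 57, the exception there being Hist1h1d. Among similar-length genes, 2 of 351 with over 50% repeated positions (0.570%) and 1190 of 2515 others (47.3%) had one. How reads that match several places were treated is not given in the sources used here, and the methods also describe dropping regions found in input libraries or on a blacklist, which was not checked here, so a missing peak at a copy cannot be read as closed chromatin, and peaks at copies are uncertain.

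The 4 genes of the pairs without a peak were repeated throughout. All positions (100%) within 1 kb of Hist1h2bq, Hist1h2ao, Hist1h2ap and Hist1h2br were repeated, and none lay in a peak. The words around Hist1h2bq were found around Hist1h2br for 99.9% of positions, and those of Hist1h2ao around Hist1h2ap for 98.5%. The span of each of the 4 genes was covered to 0%. Hist1h2ao is annotated at chr13:21810465-21810944, Hist1h2bq at chr13:21806612-21810197, Hist1h2ap at chr13:21833026-21833507 and Hist1h2br at chr13:21833743-21837530.

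Each of the other 6 copies had a start-site peak, but their cover differed. Hist1h4m (89.4% repeated) had the narrowest nearest peak of all histone genes, 225 bp, and 25.6% of its span was covered. Its partner Hist1h4n (86.9% repeated) had a peak of 814 bp, and its span was covered to 100%. In the Hist2 cluster Hist2h3c1 and Hist2h3c2 were repeated at 74.7% and 73.8% of positions. Neither start lay in a peak, and 49.2% and 52.6% of their spans were covered. Hist2h2aa1 and Hist2h2aa2, repeated at 51.2% and 53.9%, had peaks of 585 and 638 bp centred upstream of the start, which covered 0% and 13.3% of the genes. The promoters of this pair printed above share an unbroken stretch of 219 identical bases, placed differently in the window because their RefSeq starts differ. Over all 67 genes, 49.1% of repeated positions and 59.8% of other positions lay in peaks, against 3.42% and 26.0% at similar-length genes.

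**Figure D4:**
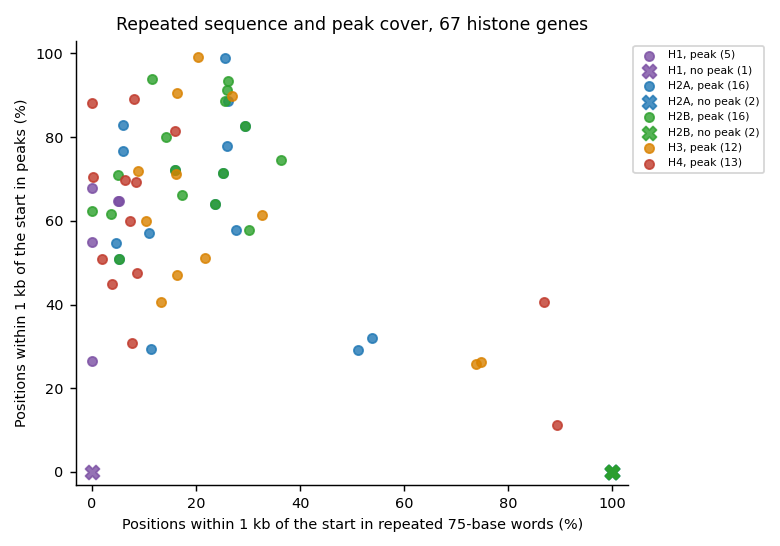
Each point is a histone gene, with the share of positions within 1 kb of its start that lie in repeated words of 75 bases (%, horizontal axis) and the share that lie in peaks (%, vertical axis); crosses are genes without a start-site peak. The cross at 100% repeated and 0% in peaks stands for 4 genes drawn on top of each other, and the cross at the left is Hist1h1d.

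Distal peaks, with centres over 1 kb from any TSS annotated in GENCODE, were counted within 50 kb of each gene. RefSeq starts were not used for this, so a peak near a start given by RefSeq alone could count as distal. Histone genes had a median of 6 (0 to 12), other protein-coding genes 4 and similar-length genes 3. Within 20 kb the median was 1 for both histone and similar-length genes. The counts of neighbours overlap, so that the 67 genes drew on 55 distinct distal peaks. Per 100 kb of sequence that could hold a distal peak, the median was 7.40 for histone genes and 3.73 for similar-length genes. The distal peaks near histone genes had a median width of 502 bp (380 bp for all 89794 distal peaks), 46.1% G and C (47.7%) and a CpG ratio of 0.464 (0.210).

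The number of distal peaks varied along the clusters. Grouped where gaps exceed 100 kb, the genes fell into 7 blocks. The 18 genes from Hist1h2bl to Hist1h2br spanned 121.8 kb and had 1 to 12 distal peaks, and the 29 genes from Hist1h4h to Hist1h1a spanned 233.4 kb and had 2 to 11. The median of the larger block, 3 (4.25 per 100 kb of eligible sequence), was close to that of similar-length genes, and that of the other was 6 (7.47 per 100 kb). The highest numbers belonged to Hist1h2ap and Hist1h2br (12 each), both without a peak of their own, followed by Hist1h4n, Hist1h4h, Hist1h2af and Hist1h3g (11 each). At the other end of the block that holds Hist1h2br, Hist1h2bl, Hist1h2ai, Hist1h2bm, Hist1h3h and Hist1h4j had 1 each. All 5 genes from Hist1h2ah to Hist1h2bj had 7. The 10 Hist2 genes had 4 to 8, both Hist3 genes had 5, and Hist4h4 had 4. The testis genes Hist1h2ba and Hist1h2aa were alone in having 0, although their shared promoter had a peak.

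**Figure D5:**
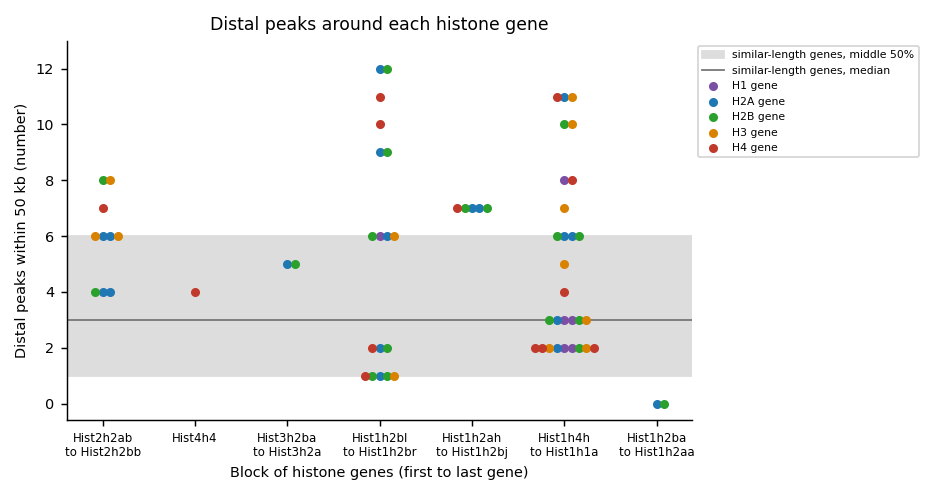
Number of distal peaks within 50 kb (vertical axis) of each histone gene (points, coloured by type) in 7 blocks, with the median and the middle 50% of similar-length genes in grey. Neighbouring genes count the same peaks where their windows overlap, and the block of Hist1h2ba and Hist1h2aa is at 0.

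The Hist1 cluster is broken by other genes, most of which had no peak. Between its first and last histone gene lie 49 other protein-coding gene entries, and 7 of them had a start-site peak. The 36 annotated entries for vomeronasal receptors among them, which act in pheromone sensing, had none (0 of 36), where Vmn1r216 has 2 overlapping entries. Of the remaining 13 genes 7 had one, namely Zfp184, Pom121l2, Prss16, Zfp322a, Abt1, Btn2a2 and Hfe, and Btn1a1, Trim38, Slc17a1, Slc17a2, Slc17a3 and Slc17a4 had none. Of the 54 Hist1 genes, 49 had a start-site peak. The other genes without one lay in the gaps between the blocks of histone genes given above, not inside a block. The receptors all lay between the block that ends with Hist1h2bj and the block that starts with Hist1h4h.

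Genes that act on the histone genes had start-site peaks too. All 20 genes found of a list for histone transcription and mRNA processing had one, with a median width of 1315 bp, which includes Npat (1260 bp), the coactivator of histone loci, Hinfp (925 bp), a factor of H4 promoters, Slbp (1346 bp), which binds the stem-loop, and Lsm10 (1023 bp) and Lsm11 (1205 bp), subunits of the U7 particle. Pou2f1, which encodes OCT1, had a peak of 2292 bp. All 7 histone chaperone genes had one as well, with a median of 1385 bp, among them Chaf1a (977 bp) and Chaf1b (1393 bp) of the factor that loads H3 and H4 at replication, and Hira (2244 bp), which loads H3.3. Of 14 replacement histone genes 12 had a start-site peak, including H3f3a (1929 bp), H2afz (2049 bp) and Cenpa (980 bp), the histone of centromeres. H1foo of the oocyte and Hils1 of the spermatid had none. Against the 70.7% of other protein-coding genes these are short lists, and nothing particular to them was tested.

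These lists differed from the replication-dependent genes in how much of the gene was covered. The median share of the span in peaks was 19.2% for replacement histone genes, 5.28% for transcription and processing genes and 4.76% for chaperone genes, against 93.8% for the replication-dependent genes. Their median spans, 3867.5, 20466.5 and 26890 bp against 539 bp, ran in the opposite order. H1fx, a replacement H1 gene of 1217 bp, was covered to 100% by a peak of 2393 bp, and H2afx, a gene of 1384 bp, to 77.7%.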

How the data were processed

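ATAC-seq reads of 75 bases, paired-end, were aligned by the authors to GRCm38 with STAR 2.6.1c, duplicates were removed with Picard, and peaks were called with MACS2 2.1.1.20160309 and merged over samples with BEDTools. The deposited list, per the file itself, gives positions in bp only, without a count, score or signal. Depth and the handling of multi-mapping reads are not given in the sources used here. The authors describe dropping blacklisted regions, those found in input libraries and those over 5 kb, yet 11 over 5 kb remained, none at a histone gene.

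Positions (1-based) were compared with GENCODE M21, GRCm38.p6 and RefSeq promoters with pandas 2.3.3, scipy 1.17.1, numba 0.67.0 and numpy 2.4.6 under Python 3.11.15, and matplotlib 3.10.9 drew the plots. Counting was checked on simulated data. The list has no samples, so shares and medians are descriptions with no test. The members, motifs and gene lists were chosen with earlier results of these data known. Genes named are those without a peak, the extremes of each type, copies, testis variants, Hist4h4 and the related lists, in which symplekin was misspelt as Symplk and so was not counted.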

Additional observations from a re-analysis of the deposited data

How the results depend on the processing

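Of 76 alternatives to 10 values, 58 moved shares within the interval of the main value, or medians and counts by at most 1.5 times, and 18 moved them further. The share of histone genes with a start-site peak was 73.1% with centres within 500 bp, 100% within 2500 bp and 100% without the Hist1 cluster. It was 98.2% without the 10 genes with over 50% of positions repeated, an alternative chosen after seeing the data. The share of similar-length genes was 36.1% and 49.2% at the same distances, 36.7% with the TSS inside the peak, 63.4% for spans between the lowest and highest of the histone genes, 35.8% between their 10th and 90th percentiles, 48.5% by exonic length, 46.2% without chemosensory receptors and 17.9% for spans under 1200 bp, the last also chosen after seeing the data. It stayed below that of histone genes at each matched setting. The covered share of similar-length genes was 0% in the main setting, 5.33% with the wider range of spans and 2.63% by exonic length. Within 20 kb the median number of distal peaks was 1 for both sets, so the difference seen at 50 kb was not seen there, and within 100 kb it was 6 for similar-length genes and 9 for histone genes. With up to 1 mismatch the octamer was found in 88.2% of H2B promoters, and in 16.5% of 2120 other promoters. No paired analysis was possible because the list holds no value per sample, and no library could be left out. Positions without signal set the limit: how open a region was, and in which sample, cannot be read from them.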
